A study of Mus musculus with 16 samples.

Results

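The integrin and laminin genes are the 36 mouse genes of a fixed list of subunits, 26 integrins (18 alpha and 8 beta chains) and 10 laminin chains, out of 22367 protein-coding genes of chromosomes 1 to 19, X and Y. The list was drawn up by gene family and by the tissue in which each subunit is best known. It holds 10 epithelial integrins, 10 leukocyte and platelet integrins, 6 mesenchymal and muscle integrins, 5 laminins of epithelial basement membranes and 5 other laminins. A gene was scored as carrying a mark where a deposited ChIP-seq peak shared at least 1 bp with the 3000 bp to either side of any of its annotated transcript starts in mm9.

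The study mapped H3K4me3, H3K27me3 and H3K9me3 in sorted mouse skin cells to compare growing with resting hair follicle stem cells (HFSCs). The labels describe 16 samples, of which 12 have a peak list, 1 for each of 3 marks in 4 populations, while the 4 IgG samples served as background for peak calling. By the labels all cells came from male wild-type CD1 x FVB mice, while the study's methods name both sexes for most of its work. EA-HFSCs were sorted at PD22 to PD25 (postnatal days, early anagen, the growth phase of the follicle) and LC-HFSCs at PD38 to PD44 (late catagen, the end of regression), both as CD34+ and α6-integrin+ cells. Non-EA-HFSCs (early age) and, at the later age, non-LC-HFSCs were the matching CD34- and α6-integrin+ cells, a mixture that by the study's methods is chiefly epidermis and lower outer root sheath. Chromatin of 15 to 20 pooled mice, cut with micrococcal nuclease, was divided among the antibodies, and reads of repeat experiments were pooled before peaks were called. There is therefore 1 list per population and mark, with no replicate error, and no test between populations was possible. In pooled cells, a mark carried by some of the cells and a weaker mark in all of them cannot be told apart.

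Integrins are receptors made of an alpha and a beta chain that hold cells to the extracellular matrix or to other cells, and laminins are the heterotrimeric proteins that build the basement membrane to which they bind. In skin, α6β4 integrin anchors basal keratinocytes in hemidesmosomes and α3β1 integrin in focal contacts, both on laminin-332, which contains the chains encoded by Lama3 and Lamb3. H3K4me3 marks the starts of active and poised genes, H3K27me3 is the mark of Polycomb repression, and H3K9me3 is best known from heterochromatin. α6 integrin, the product of Itga6, was itself a sorting marker of all 4 populations, so that its presence in every one of them was fixed by the sort.

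The lists differed widely in length. H3K4me3 lists held 14718 (LC-HFSCs) to 24498 (non-EA-HFSCs) peaks, H3K27me3 lists 1909 (LC-HFSCs) to 25534 (EA-HFSCs), and H3K9me3 lists 1414 (LC-HFSCs) to 42277 (EA-HFSCs). The lists do not hold the number of reads behind them. By the study's methods the LC-HFSCs lists rest on more reads than those of EA-HFSCs, and peak calling came near saturation for H3K4me3 but not for H3K27me3 and H3K9me3. A gene without a peak is one where none passed the authors' threshold, not one shown to lack the mark. H3K4me3 peaks lay at all 6 basal keratinocyte markers (Krt5, Krt14, Trp63, Cdh1, Perp and Epcam) in every population and at 7 of 7 bulge markers in EA-HFSCs and LC-HFSCs. In the 2 CD34- populations 6 of 7 bulge markers had one, and the marker without was Cd34 itself. Of 7 leukocyte markers only Cd68 had an H3K4me3 peak in the window, in all 4 populations. That peak lay 2435 to 2574 bp from the nearest Cd68 start and covered no Cd68 start. Ptprc, Cd3e and Csf1r had no H3K4me3 peak (Itgam is on that list too). Of 6 mesenchymal markers 4 had an H3K4me3 peak in EA-HFSCs, 4 in non-EA-HFSCs, 3 in LC-HFSCs and 3 in non-LC-HFSCs. Endothelial markers had 1 of 4 in each population (Kdr), and melanocyte markers 3, 3, 3 and 2 of 4 in the same order. Of these melanocyte markers, Mitf had a peak over a start, while the peaks at Dct and Pmel covered no start of either gene. The shares of all genes with an H3K4me3 peak were 62.4, 61.7, 55.9 and 58.8% in that order. The part of other cell types in the marks at integrin and laminin genes was not tested.

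H3K4me3 was found at nearly the same integrin and laminin genes in all populations. It lay at 26 of the 36 in EA-HFSCs, where 62.4% of all genes had a peak (95% Wilson interval 61.8 to 63.1%, counting error only). It lay at 24 in non-EA-HFSCs (61.7% of all genes), 24 in LC-HFSCs (55.9%) and 23 in non-LC-HFSCs (58.8%). A total of 23 genes carried it in every population, against 54.9% of all genes, and 10 in none, against 35.9% of all genes. By role, all 10 epithelial integrins had a peak in EA-HFSCs and 9 in each of the other populations, and all 5 epithelial laminins had one in all 4. Of the leukocyte and platelet integrins 3 of 10 had a peak (2 in non-LC-HFSCs), of the mesenchymal and muscle integrins 5 of 6 in EA-HFSCs and 4 elsewhere, and of the other laminins 3 of 5.

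**Figure D1:**
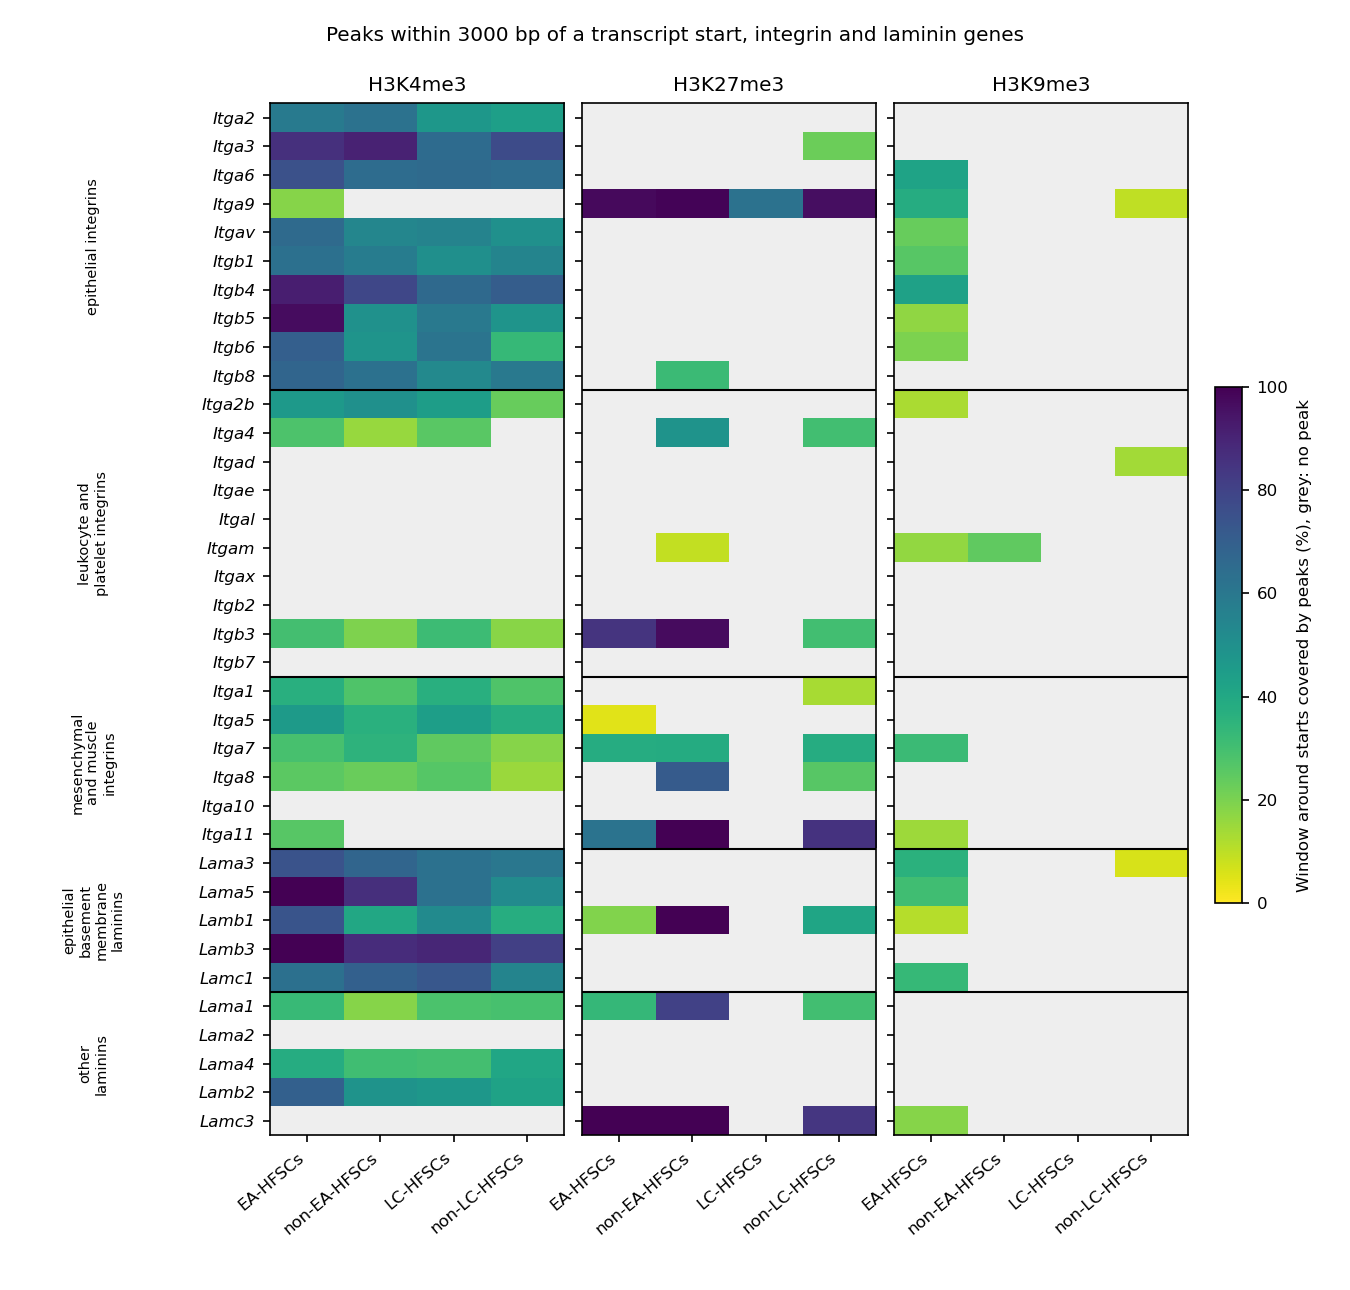
Rows are the 36 genes in 5 groups by role and columns the 4 populations, with 1 panel per mark. Colour gives the percentage of the 3000 bp to either side of a start that peaks cover, highest over the starts of a gene, and grey no peak. The H3K4me3 panel is filled for epithelial laminins and, apart from Itga9, for epithelial integrins, and the LC-HFSCs column is empty but for Itga9 in the H3K27me3 panel and empty in the H3K9me3 panel.

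The 10 genes without H3K4me3 in any population were 7 leukocyte integrins and 3 others. The 7 were Itgal, Itgam, Itgax and Itgad, the alpha chains that pair with β2, the β2 chain Itgb2 itself, and Itgae and Itgb7, the chains of the αEβ7 receptor of intraepithelial lymphocytes. The other 3 were Itga10, a collagen receptor of cartilage, Lama2, the laminin α chain of muscle and nerve, and Lamc3. Of these 10, 7 had no peak of any of the 3 marks at a start in any population (Itgae, Itgal, Itgax, Itgb2, Itgb7, Itga10 and Lama2). The share of all genes without any of the marks was not counted, so this number has no comparison. Among leukocyte and platelet integrins the exceptions were Itga2b and Itgb3, the chains of the platelet fibrinogen receptor, in all 4 populations, and Itga4, the α4 chain of the VCAM1 receptor, in 3. At Itga2b the peaks covered internal starts only, and its outermost start had none in any population.

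Most of the genes that hold the basal cell to its basement membrane had broad H3K4me3 peaks. Widths are in bp and refer to the widest peak at any start of the gene, given first for EA-HFSCs, then for non-EA-HFSCs, LC-HFSCs and last for non-LC-HFSCs. Itga3 had peaks of 8482, 8461, 5822 and 4990 bp, Itga6 of 5281, 5022, 3999 and 4160 bp, and Itgb4 of 5499, 4720, 3955 and 4233 bp. Itgb1, the partner of most alpha chains outside blood cells, had 3780, 3477, 3014 and 3300 bp. All 4 genes were above the median of all genes with a peak in every population, which was 3123, 2571, 2587.5 and 2320 bp. Lamb3 had 8216, 4018, 5670 and 3934 bp, Lama3 4789, 4986, 3847 and 3617 bp, and Lamc1, the laminin γ1 chain, 3795, 3623, 4367 and 3286 bp. Lama5, the α chain of laminin-511, had 5305, 3498, 4829 and 3113 bp and Lamb1, the laminin β1 chain, 4443, 2406, 3123 and 2273 bp. The largest difference between populations in the widest peak lay at the αv partners Itgb5 and Itgb6, receptors of vitronectin and of latent TGFβ. Itgb5 had 8001, 2695, 2744 and 2565 bp and Itgb6 7481, 2901, 3701 and 1978 bp, so that for both the EA-HFSCs peak stood apart from the other 3. At Itgb5 the stretch that was 1 peak in EA-HFSCs held 2 peaks in each of the other lists, which covered 58.3% of it in non-EA-HFSCs, 68.2% in LC-HFSCs and 52.1% in non-LC-HFSCs. At Itgb6 the cover was 47.4, 49.5 and 26.4%. At Lamb3 it was 87.3, 69.0 and 59.3%, with 4 peaks in non-EA-HFSCs and 2 in non-LC-HFSCs. A gap in width at Itgb5 and Lamb3 is thus in part 1 long peak against several shorter ones. The Itgb6 peak in non-LC-HFSCs was below the median of all genes with a peak there. Lamb1 was below it in both CD34- populations, with 2406 against 2571 bp in non-EA-HFSCs and 2273 against 2320 bp in non-LC-HFSCs.

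In EA-HFSCs 5 of the 26 genes with a peak lay above 5318.8 bp, the upper decile of all genes with a peak: Itga3, Itgb4, Itgb5, Itgb6 and Lamb3. The median widest peak there was 4719.5 bp for the 10 epithelial integrins and 4789 bp for the 5 epithelial laminins, against 1735 bp for 5 mesenchymal and 1798 bp for 3 leukocyte and platelet integrins. These medians cover only genes that had a peak. Among epithelial integrins the remaining values were 3525, 2742, 2821 and 2621 bp for Itga2, the collagen receptor chain, and 3936, 3249, 3328 and 2998 bp for Itgav. Itgb8, a partner of αv, had 4158, 3812, 3175 and 3576 bp. The lowest of the group was Itga9, a receptor chain for tenascin, with 1088 bp in EA-HFSCs and no peak in the other 3 populations. Of 24 genes with a peak in both stem cell populations, 21 had the wider one in EA-HFSCs, as did 89.5% of all such genes. The 3 exceptions were Itgb3, Itga8 and Lamc1. Of the 23 with a peak in all populations 16 were widest in EA-HFSCs, against 76.7% of all such genes. Both shares lay near those of all genes.

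The genes better known from mesenchyme, muscle, platelets and other basement membranes had mostly narrower H3K4me3 peaks. Itga1, a collagen receptor chain, had 2221, 1642, 2216 and 1650 bp and Itga5 2730, 2182, 2635 and 2260 bp. Itga7 had 1735, 2128, 1459 and 1092 bp and Itga8 1504, 1371, 1588 and 893 bp. All 4 lay below the median of all genes with a peak in every population, except Itga5 in LC-HFSCs (2635 against 2587.5 bp). The platelet receptor chains had 2748, 2998, 2650 and 1384 bp (Itga2b) and 1798, 1157, 1889 and 1066 bp (Itgb3). At Itga2b the EA-HFSCs peak of 2748 bp lay 12271 to 15018 bp downstream of the outermost start, at a site without a peak in LC-HFSCs. The other Itga2b widths lay nearer to that start, where EA-HFSCs had a peak of 2589 bp. Itga2b was above the median of all genes with a peak in non-EA-HFSCs and LC-HFSCs. Lamb2, the laminin β2 chain, had 4163, 2915, 2831 and 2533 bp and was the only one of the other laminins above the median in every population. Lama4, the α chain of vessel walls, had 2285, 1838, 1798 and 2439 bp, and Lama1 1958, 1082, 1698 and 1754 bp.

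**Figure D2:**
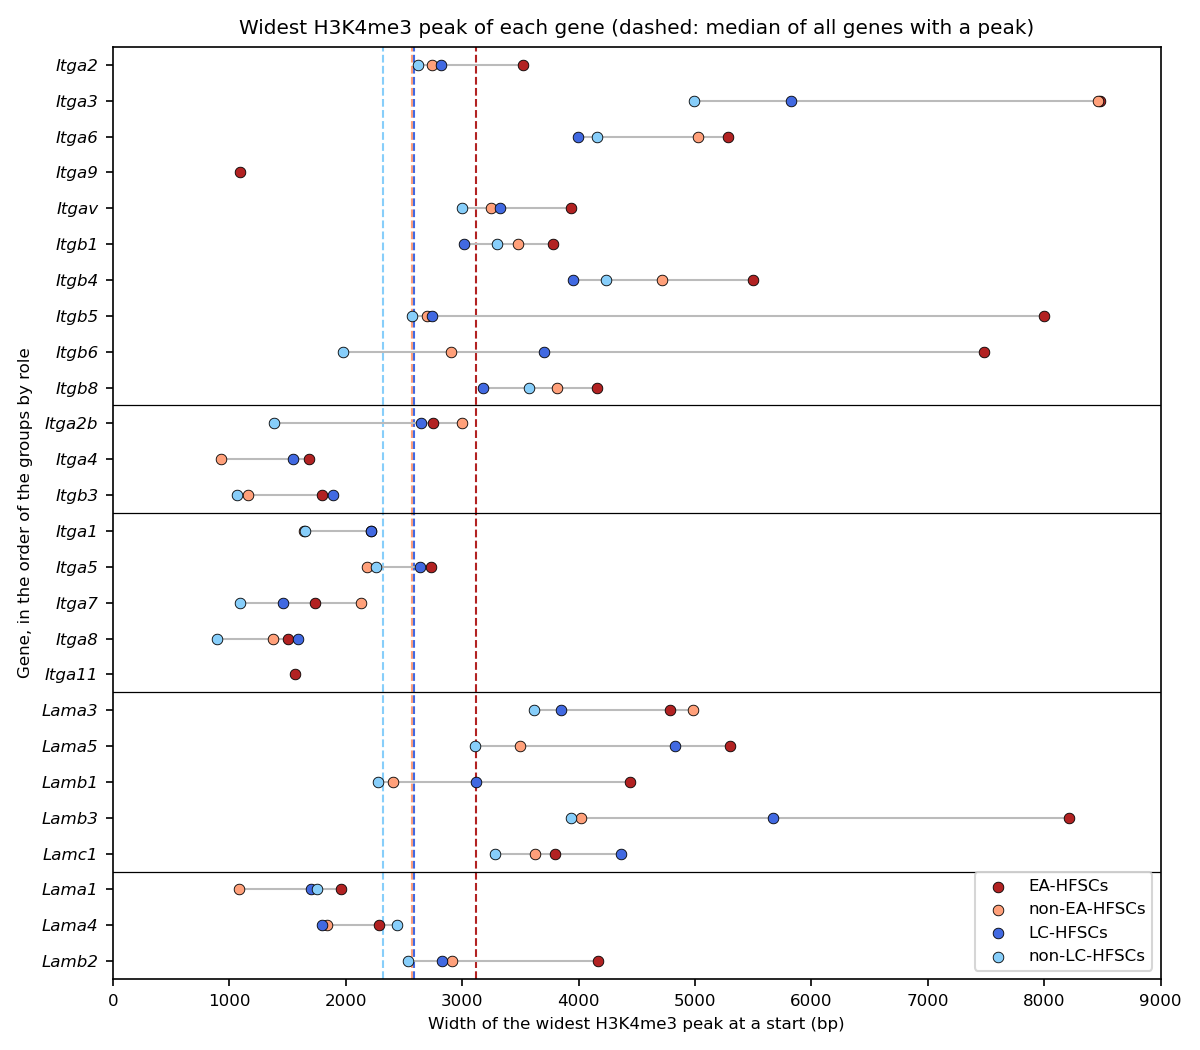
Each row is 1 of the 26 genes with an H3K4me3 peak, and each point the width in bp of its widest peak in 1 of the 4 populations. Dashed lines give the median of all genes with a peak, from 2320 bp in non-LC-HFSCs to 3123 bp in EA-HFSCs. Itgb5, Itgb6 and Lamb3 show the widest gaps between EA-HFSCs and the rest, and all mesenchymal integrins lie below the EA-HFSCs median.

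The position of the peaks showed which of several annotated starts carried H3K4me3. At 23 of the 26 genes a peak covered the outermost annotated start in at least 1 population, and at Itga6, Itgb6 and Itga2b in none. The share of all genes was not counted here, so this number has no comparison. The Itga6 peak ran in EA-HFSCs from 39958 to 45238 bp downstream of the outermost start (chr2:71623631-71628911) and covered 4 further starts, in all 4 populations. At Itgb6 it lay at chr2:60505456-60512936 in EA-HFSCs, over 5 starts 48889 to 48950 bp downstream of the outermost one, again in all 4 populations. Itga2b had a peak in all 4 populations over internal starts 2923 and 3167 bp downstream. Lama3 carried peaks at 2 places in every population, at its first start and 170178 bp downstream of it. The downstream Lama3 peak was the wider one in each of them, with 4789 against 2572 bp in EA-HFSCs and 3617 against 2370 bp in non-LC-HFSCs. With the outermost start alone, the counts fell to 24, 22, 22 and 21 by the loss of Itga6 and Itgb6.

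Peaks inside a gene body are not always the gene's own. Away from their starts, integrin and laminin genes held 17 H3K4me3 peaks in EA-HFSCs, 29 in non-EA-HFSCs, 12 in LC-HFSCs and 12 in non-LC-HFSCs. Such H3K4me3 peaks were not counted over all genes, so these numbers have no comparison. In every population 3 of these peaks away from starts covered the start of another protein-coding gene. These were Gsg2 (haspin) inside Itgae, Pelo inside Itga1 and Usp19 at the end of Lamb2. At Itgae, a leukocyte integrin with no mark at its own start, the peak over Gsg2 scored 1198, 2232, 62.8 and 1031, where the score is the authors' value of 10 times the negative log10 of the peak's p-value. Scores rank peaks within a list and were not compared between lists. In EA-HFSCs, the third Lama5 peak (4451 bp) covered the start of Adrm1, a proteasome subunit gene whose nearest start lies 2232 bp from one of Lama5. The predicted gene Gm11053 has a start 1237 bp from one of Lamb1, but no H3K4me3 peak at Lamb1 covered a start of another protein-coding gene.

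CpG content differed between genes with and without H3K4me3. The ratio of observed to expected CpG within 500 bp of the outermost start had a median of 0.591 over the 23 genes with H3K4me3 in all populations and of 0.265 over the 10 with none. The medians of all genes in the same classes were 0.735 (12281 genes) and 0.19 (8032 genes). At the 3 genes with peaks in some populations the ratio was 0.459 (Itga11), 0.466 (Itga4) and 0.875 (Itga9), with a median of 0.493 over all 2054 such genes. At Itga6 the outermost, unmarked start had a ratio of 0.163, and the marked starts had 0.818 to 0.895. At Itgb6 both kinds were CpG-poor, with 0.383 at the outermost start and 0.328 to 0.356 at the marked ones. Lamb3, one of the widest H3K4me3 peaks, had 0.195 at its outermost start, and the downstream starts of Lama3 had 0.158 and 0.163. Lamc3 with 0.648 and Itgad with 0.567 had the highest ratios among genes without H3K4me3.

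The bases just upstream of the start show CpG content letter by letter, and the order was not the same at every gene. RefSeq promoters (GRCm38.p6) were given for 23 of the 36 genes, and all 23 were placed on mm9 by an exact match. A choice of 8 follows, each as the 250 bases upstream of the start on the gene's strand, with every CG in capitals. Itgb1 (chr8:131209304-131209553, plus strand, 21 CG) and Itga3 (chr11:94938029-94938278, minus strand, 22 CG) stand for genes with H3K4me3 in all populations. The marked (chr2:60511751-60512000, minus, 3 CG) and unmarked (chr2:60560661-60560910, minus, 11 CG) starts of Itgb6 are shown because H3K4me3 lay at the one with fewer CG. Itga4 (chr2:79095333-79095582, plus, 6 CG) and Itga11 (chr9:62525412-62525661, plus, 12 CG) had H3K4me3 in some populations. Itgb7 (chr15:102062367-102062616, minus, 5 CG) and Lama2 (chr10:27336749-27336998, minus, 0 CG) had none. Among those not shown, Lamb3 (2 and 3 CG at a pair of starts) and Lamb2 (3 CG) had H3K4me3 in all populations, and Itgam (6 CG) and Itgax (5 CG) had none. Over all 32851 RefSeq promoters the median was 6 CG in 250 bases, with quartiles of 2 and 16.
Itgb1: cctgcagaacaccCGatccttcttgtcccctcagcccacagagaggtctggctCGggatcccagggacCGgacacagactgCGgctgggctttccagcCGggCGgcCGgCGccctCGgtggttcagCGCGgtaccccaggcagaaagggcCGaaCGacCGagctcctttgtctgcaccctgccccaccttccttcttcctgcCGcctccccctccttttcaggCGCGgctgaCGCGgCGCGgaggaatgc
Itga3: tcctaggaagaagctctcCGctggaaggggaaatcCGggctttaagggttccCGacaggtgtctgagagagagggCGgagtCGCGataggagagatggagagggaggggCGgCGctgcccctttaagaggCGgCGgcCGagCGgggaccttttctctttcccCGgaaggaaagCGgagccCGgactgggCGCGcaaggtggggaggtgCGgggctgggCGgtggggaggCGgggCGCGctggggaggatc
Itgb6 marked start: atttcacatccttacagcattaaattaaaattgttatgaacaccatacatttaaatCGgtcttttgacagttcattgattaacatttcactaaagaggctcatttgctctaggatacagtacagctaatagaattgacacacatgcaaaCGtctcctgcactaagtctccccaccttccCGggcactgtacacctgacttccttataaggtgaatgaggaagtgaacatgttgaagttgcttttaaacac
Itgb6 unmarked start: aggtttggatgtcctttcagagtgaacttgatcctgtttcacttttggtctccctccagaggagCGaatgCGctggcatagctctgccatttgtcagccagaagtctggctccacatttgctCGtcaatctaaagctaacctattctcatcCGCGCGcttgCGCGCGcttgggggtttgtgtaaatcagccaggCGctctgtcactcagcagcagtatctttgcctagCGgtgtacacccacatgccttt
Itga4: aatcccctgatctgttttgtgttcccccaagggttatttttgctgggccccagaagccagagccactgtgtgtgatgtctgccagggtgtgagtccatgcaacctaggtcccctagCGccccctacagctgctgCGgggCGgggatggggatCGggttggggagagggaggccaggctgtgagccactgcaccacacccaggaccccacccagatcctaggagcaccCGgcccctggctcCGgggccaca
Itga11: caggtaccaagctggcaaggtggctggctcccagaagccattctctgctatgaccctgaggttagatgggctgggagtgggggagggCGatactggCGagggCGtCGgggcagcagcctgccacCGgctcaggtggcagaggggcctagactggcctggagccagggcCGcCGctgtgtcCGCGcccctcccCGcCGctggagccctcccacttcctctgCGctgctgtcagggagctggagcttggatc
Itgb7: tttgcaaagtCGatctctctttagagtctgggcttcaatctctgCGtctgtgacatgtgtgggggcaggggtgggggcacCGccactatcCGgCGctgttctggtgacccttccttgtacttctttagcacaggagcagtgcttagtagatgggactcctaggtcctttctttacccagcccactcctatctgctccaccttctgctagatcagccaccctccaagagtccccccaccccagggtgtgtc
Lama2: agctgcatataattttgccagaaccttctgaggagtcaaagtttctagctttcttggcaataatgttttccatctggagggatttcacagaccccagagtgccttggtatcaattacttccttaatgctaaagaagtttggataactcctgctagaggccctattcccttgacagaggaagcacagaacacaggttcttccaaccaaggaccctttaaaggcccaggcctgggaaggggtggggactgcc

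No entry was used for Itga6, Itgb4, Itgad, Itgae, Itgal, Itgb2, Itgb3, Itga7, Lama3, Lamc1, Lama1, Lama4 and Lamc3. The GC box letters GGGCGG, searched on both strands, occurred 3 times in the Itga3 sequence, once each in those of Itgb1 and Itga4 and in none of the other 5, and 32.7% of all RefSeq promoters held them. A match of these letters is a description of the sequence only.

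**Figure D3:**
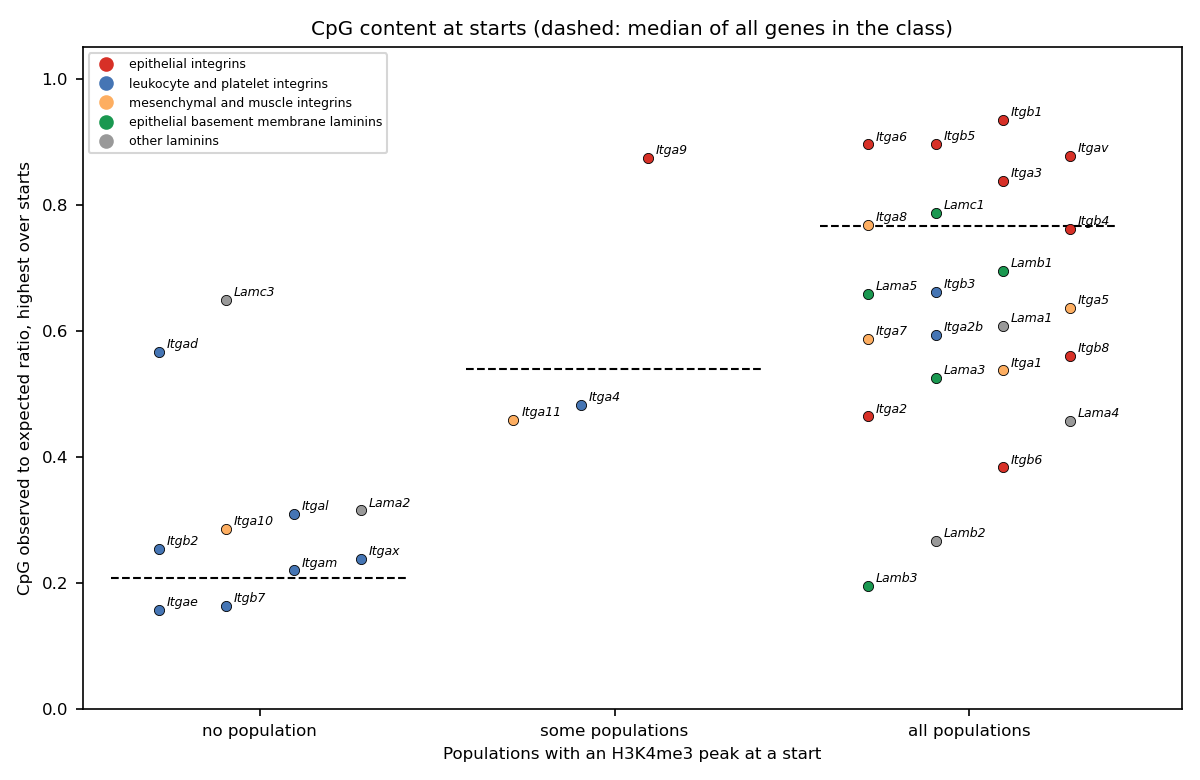
The observed to expected CpG ratio within 500 bp of a start, highest over the starts of a gene, is plotted for the 36 genes by the number of populations with H3K4me3, coloured by role. Dashed lines give medians of all genes in the class. Of the 10 genes without H3K4me3, Lamc3 and Itgad lie above the rest, which reach 0.315 at Lama2, and Lamb3 and Lamb2 are low among genes marked in all populations.

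Only 3 genes differed in H3K4me3 between populations. Of 26 genes with a peak in EA-HFSCs 24 kept one in LC-HFSCs (89.3% of all genes with one), and no gene had it in LC-HFSCs but lacked it in EA-HFSCs (0.121% of all genes) or had it in non-LC-HFSCs and not in non-EA-HFSCs (0.411%). Itga9 and Itga11, the latter a collagen receptor chain of fibroblasts, had it in EA-HFSCs only, where 6.68% of all genes had a peak that LC-HFSCs lacked and 2.19% one that non-EA-HFSCs lacked. Their peaks were 1088 bp (score 67.5) and 1568 bp (score 220), which placed them above 9.78% and 34.6% of the EA-HFSCs list by score. Itga4 had peaks of 1681, 926 and 1546 bp in EA-HFSCs, non-EA-HFSCs and LC-HFSCs and none in non-LC-HFSCs (3.33% of all genes had one in non-EA-HFSCs and not in non-LC-HFSCs, 0.809% in LC-HFSCs and not in non-LC-HFSCs). The Itga4 peaks scored above 46.2, 11.1 and 12.4% of their lists, so that every peak of these 3 genes lay below the median score of its list. At a score of at least 100, 5 genes rather than 2 had a peak in EA-HFSCs and not in LC-HFSCs, with Itga4, Itgb3, Itga7 and Lama1 in and Itga9 out. With the 14718 best peaks of each list, only Itga11 remained.

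H3K27me3 was found at fewer genes, and in LC-HFSCs at 1. It lay at 8 of the 36 in EA-HFSCs (14.0% of all genes), 11 in non-EA-HFSCs (16.8%), 1 in LC-HFSCs (3.73%) and 11 in non-LC-HFSCs (12.9%). In all, 14 genes had it in some population, against 19.9% of all genes. They included 5 of the 6 mesenchymal and muscle integrins (Itga1, Itga5, Itga7, Itga8 and Itga11), 3 of 10 epithelial integrins (Itga3, Itga9 and Itgb8), 3 of 10 leukocyte and platelet integrins (Itga4, Itgam and Itgb3), Lamb1, Lama1 and Lamc3. The hemidesmosome and laminin-332 genes Itga6, Itgb4, Lama3 and Lamb3 had it in none.

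Itga9 was the only gene of the 36 with H3K27me3 in all 4 populations (3.56% of all genes). Its widest peaks were 6256, 7336, 2232 and 3795 bp, in the order used above, and peaks covered 97.4, 99.0, 62.3 and 96.4% of the window around a start. The EA-HFSCs peak of 6256 bp lay near an internal start, 79269 to 85524 bp downstream of the outermost one. At the outermost start the widest EA-HFSCs peak was 4289 bp. The LC-HFSCs peaks lay at chr9:118513725-118515956 and chr9:118516086-118517589, the first over the same start that carried the EA-HFSCs H3K4me3 peak and the second 278 bp downstream of it. In EA-HFSCs 10 more H3K27me3 peaks lay over the gene away from its starts, and 10.4% of its 294 kb was covered, against 3.12% in non-EA-HFSCs and 2.61% in non-LC-HFSCs. Itga9 thus had the mark over and around its start in every list, with the shortest peaks in LC-HFSCs.

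Lamc3, the laminin γ3 chain, had the widest H3K27me3 peaks of the 36 genes in EA-HFSCs and non-EA-HFSCs, and no H3K4me3. They measured 10855 bp in EA-HFSCs, 14141 bp in non-EA-HFSCs and 5057 bp in non-LC-HFSCs, with none in LC-HFSCs. Itga11 had 3720, 8258 and 5111 bp in the same 3 populations, and the non-EA-HFSCs peak filled the whole window around its start (chr9:62521394-62529651). At both genes the peak was widest in non-EA-HFSCs and LC-HFSCs had none. Lamb1 had 1127, 9274 and 2481 bp, Lama1, a laminin α chain of early embryos, 1997, 4837 and 1817 bp, and Itgb3 2884, 3726 and 1120 bp. Itga7, the laminin receptor chain of muscle, had 2279, 2298 and 1449 bp. Each of the 7 genes with the mark in both early populations had its wider peak in non-EA-HFSCs, by the least at Itga7, as did 77.6% of all genes with the mark in both.

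The other genes had H3K27me3 in 1 or 2 lists. Itga8, a nephronectin receptor chain of smooth muscle, had peaks of 4274 bp in non-EA-HFSCs and 1569 bp in non-LC-HFSCs, and Itga4 peaks of 2915 and 1827 bp in the same 2. Itgb8 (1902 bp, score 52.1) and Itgam (3597 bp) had it in non-EA-HFSCs, Itga3 (1341 bp, score 52.5) and Itga1 (794 bp, score 41) in non-LC-HFSCs and Itga5, the fibronectin receptor chain, in EA-HFSCs (1561 bp). By the peak nearest to a start, Itga5 was the gene just inside the window (2732 bp), and Lama4, with an H3K9me3 peak in non-EA-HFSCs at 3292 bp, was the one just outside. With a window of 1000 bp Itga5, Itgam and Itga3 dropped out.

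Between the ages, 7 genes had H3K27me3 in EA-HFSCs and not in LC-HFSCs (10.4% of all genes), namely Itgb3, Itga5, Itga7, Itga11, Lamb1, Lama1 and Lamc3. Only 1 of 8 was kept, where 26.1% of all genes with the mark in EA-HFSCs kept it. In the CD34- populations 9 of 11 were kept (71.2% of all genes with it in non-EA-HFSCs), Itgb8 and Itgam were without it at the late age (4.84% of all genes) and Itga3 and Itga1 had it there alone (0.966%). In non-LC-HFSCs and not in LC-HFSCs were 10 genes (9.27%). Between the early populations, Itga5 had it in EA-HFSCs alone (2.58%) and Itgb8, Itga4, Itgam and Itga8 in non-EA-HFSCs alone (5.36%). These counts moved with list length. With the 1909 best peaks of each list the numbers were 1, 1, 1 and 2, and the LC-HFSCs value was no longer the lowest. Itga9 then remained in both stem cell populations and Itga11 in non-EA-HFSCs, while both genes were left in non-LC-HFSCs.

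H3K4me3 and H3K27me3 occurred together at 7 genes in EA-HFSCs (8.89% of all genes), 7 in non-EA-HFSCs (10.8%), 0 in LC-HFSCs (1.30%) and 7 in non-LC-HFSCs (6.60%). Itgb3, Itga7, Lamb1 and Lama1 had both in all 3 of these populations. In LC-HFSCs the same 4 genes had H3K4me3 peaks of 1889, 1459, 3123 and 1698 bp and no H3K27me3 peak. Itga9 and Itga11 had both in EA-HFSCs and H3K27me3 without H3K4me3 in the CD34- populations, and Itga4 had both in non-EA-HFSCs and H3K27me3 alone in non-LC-HFSCs. Lamc3 had H3K27me3 without H3K4me3 in the 3 populations where it had it. Peaks of the 2 marks shared bases at all of these genes except Itga5 in EA-HFSCs. In a pool this does not tell whether both marks sat on the same nucleosomes or in different cells.

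**Figure D4:**
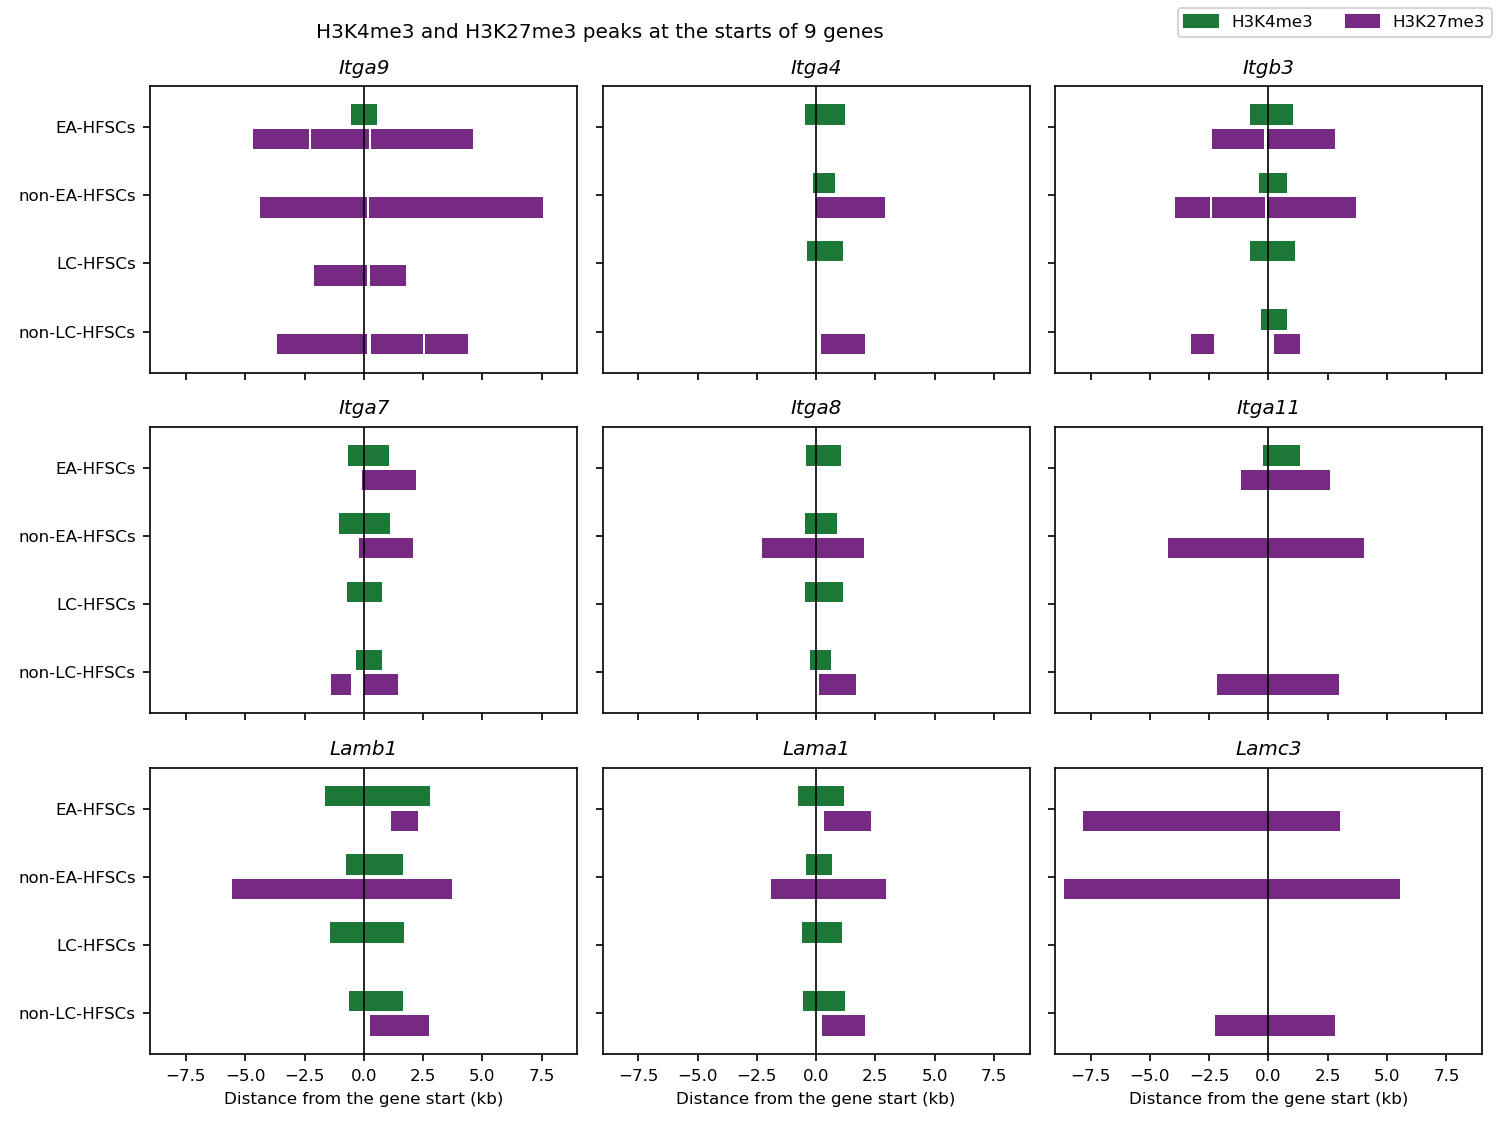
Peaks of H3K4me3 (green) and H3K27me3 (purple) at 9 genes are drawn by distance in kb from the outermost start (vertical line), in the direction of transcription, with 1 row per population. Itga9 alone has H3K27me3 in the LC-HFSCs row, Lamc3 has no H3K4me3, and H3K27me3 at Lama1 and Lamb1 lies downstream of the start in EA-HFSCs and non-LC-HFSCs and on both sides in non-EA-HFSCs.

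H3K9me3 lay at 16 of the 36 genes in EA-HFSCs (47.9% of all genes), 1 in non-EA-HFSCs (4.14%), 0 in LC-HFSCs (0.505%) and 3 in non-LC-HFSCs (14.1%). The EA-HFSCs genes were 7 epithelial integrins (Itga6, Itga9, Itgav, Itgb1, Itgb4, Itgb5 and Itgb6), 4 epithelial laminins (Lama3, Lama5, Lamb1 and Lamc1), Itga2b, Itgam, Itga7, Itga11 and Lamc3. At 14 of the 16 the H3K9me3 peak overlapped an H3K4me3 peak of the same cells, with Itgam and Lamc3 the exceptions, against 86.6% of all genes with H3K9me3. Of the 26 genes with H3K4me3 in EA-HFSCs these 14 had H3K9me3 too, against 69.3% of all genes with H3K4me3. The widest were at Itgb4 (2570 bp, score 158), Itga6 (2513 bp, score 120) and Lama3 (2165 bp, score 124), and the highest score was that of Itga7 (1905 bp, score 196). The others of the 16 scored 44 to 155, the highest of them at Lama5, on a scale on which 40 was the lowest deposited. At a score of at least 100, 5 of the 16 were left, and with the 1414 best peaks of each list 1, Itga7.

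In the other populations the H3K9me3 peaks were few. Itgam, the αM chain of macrophages and granulocytes, had 2 in non-EA-HFSCs near an internal start, 1 of 431 bp and 1 of 2536 bp (score 273, above 95.9% of that list) that began 55767 bp downstream of the outermost start, and 2 of 739 and 587 bp in EA-HFSCs. In non-LC-HFSCs Itga9 had 1 of 573 bp, Itgad 2 of 537 and 532 bp and Lama3 1 of 1070 bp, with scores of 42.8 to 51.2. Away from starts, H3K9me3 peaks lay over 14 of the 36 genes in EA-HFSCs (30 peaks; 17.0% of all genes), 9 in non-EA-HFSCs (11 peaks; 11.6%), none in LC-HFSCs (1.15%) and 12 in non-LC-HFSCs (19 peaks; 13.7%). Gene length was not matched in this comparison. Lama2, the longest of the genes at 636 kb, held 10 of the 30 in EA-HFSCs, which covered 0.766% of it.

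Other genes of the adhesion machinery were set beside the 36 as a list of 30, made of 16 integrin linkers and hemidesmosome genes and 14 basement membrane partners and integrin ligands. H3K4me3 lay at 24, 24, 23 and 24 of them (62.4, 61.7, 55.9 and 58.8% of all genes). H3K27me3 lay at 3, 5, 1 and 5 (14.0, 16.8, 3.73 and 12.9%) and H3K9me3 at 19, 2, 0 and 8 (47.9, 4.14, 0.505 and 14.1%). Of the 16 linkers 14 had H3K4me3 in each population, Tln2 and Fermt3 in none, the latter the kindlin of blood cells. Fermt2 (kindlin-2) and Dst (dystonin) were the only linkers with H3K27me3, and had it in both CD34- populations. Of the matrix genes, Nid2 (nidogen-2) had H3K27me3 in all 4 populations with H3K4me3 beside it, in peaks of 6474, 5781, 4573 and 6186 bp. Fn1 (fibronectin) and Vtn (vitronectin) had H3K27me3 in 3 populations and not in LC-HFSCs. Among both lists, Itga9 and Nid2 were thus the 2 with an H3K27me3 peak in LC-HFSCs.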

How the data were processed

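ChIP-seq peak lists of H3K4me3, H3K27me3 and H3K9me3 in 4 sorted populations were analysed, 12 in all. The authors trimmed reads (Trimmomatic 0.22 is named in the submitters' processing notes), aligned them to mm9 with Bowtie2, pooled experiments and called peaks with MACS against IgG. The deposited score of each peak is 10 times the negative log10 of its p-value, and its lowest values were 50 for H3K4me3 and 40 for the other marks. The lists hold no read counts, so the depth of each list was not used here.

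Peaks (1-based, mm9) were compared with 22367 protein-coding genes of GENCODE vM1 (NCBIM37) in Python 3.11.15 with numpy 2.4.6, and figures were drawn with matplotlib 3.10.9. A gene had a mark where a peak shared at least 1 bp with the 3000 bp to either side of any transcript start. This step was tested on simulated data. Shares of all genes carry 95% Wilson intervals for counting error only. Alternatives were scores of at least 50 or 100, the outermost start alone, a window of 1000 bp, and equal numbers of best peaks per list. Protein-coding transcripts alone, and the highest CpG ratio over starts, were added after seeing the data. All 36 genes were named, with full values for epithelial subunits, for genes whose H3K4me3 or H3K27me3 differed between populations, and for those with H3K9me3 outside EA-HFSCs. The genes and lists were chosen with earlier results of these data known. Populations were not tested against each other.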

Additional observations from a re-analysis of the deposited data

Results flagged for a closer look

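The number of integrin and laminin genes with an H3K9me3 peak changed in opposite directions in the sorted populations between the ages, by -16 from EA-HFSCs to LC-HFSCs and by 2 from non-EA-HFSCs to non-LC-HFSCs. The share of all genes with such a peak moved in the same directions, from 47.9 to 0.505% and from 4.14 to 14.1%. The difference between the changes was not tested, since there is 1 list per population. At a score of at least 100 the counts were 5 in EA-HFSCs, 0 in LC-HFSCs, 1 in non-EA-HFSCs and 0 in non-LC-HFSCs. With the 1414 best peaks of each list they were 1, 0, 1 and 0 in the same order. At a score of at least 50 both CD34- populations had 1. The rise in the CD34- populations was thus absent under each of these settings. It stayed with the outermost start alone and with a window of 1000 bp, from 0 to 2 in each.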

How the results depend on the processing

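Of the 12 counts of genes with a mark, the 4 for H3K4me3 stayed within 1.5 times under all 6 alternatives. With equal numbers of best peaks H3K27me3 fell to 1 gene in EA-HFSCs, 1 in non-EA-HFSCs and 2 in non-LC-HFSCs, and H3K9me3 to 1 in EA-HFSCs and 0 in non-LC-HFSCs. At a score of at least 100 H3K27me3 fell to 0 in LC-HFSCs and 5 in non-LC-HFSCs, and H3K9me3 to 5 in EA-HFSCs and 0 in non-LC-HFSCs. At a score of at least 50 H3K9me3 in non-LC-HFSCs fell to 1. With the outermost start alone, and with a window of 1000 bp, H3K9me3 in non-EA-HFSCs fell to 0, by Itgam. Genes with both H3K4me3 and H3K27me3 numbered 4, 4 and 2 in EA-HFSCs, non-EA-HFSCs and, last, non-LC-HFSCs at a score of at least 100, and 0 in each with equal numbers. Each alternative keeps fewer peaks or starts.

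Counts of genes with a peak in one population and none in another moved more. For H3K4me3 at a score of at least 100 they were 5 (EA-HFSCs without LC-HFSCs), 0 (LC-HFSCs without non-LC-HFSCs) and 2 (the converse). With equal numbers they were 1 (EA-HFSCs without LC-HFSCs), 0 (non-EA-HFSCs without non-LC-HFSCs), 1 (the converse), 4 (EA-HFSCs without non-EA-HFSCs) and 2 (LC-HFSCs without non-LC-HFSCs). For H3K27me3, non-EA-HFSCs without non-LC-HFSCs gave 4 at a score of at least 100, 1 with the outermost start, 1 with 1000 bp and 0 with equal numbers, and the converse 1 under both score limits, 1000 bp and equal numbers. EA-HFSCs without LC-HFSCs gave 0 with equal numbers, EA-HFSCs without non-EA-HFSCs 0 with 1000 bp, and the converse 1 with equal numbers. Non-LC-HFSCs without LC-HFSCs gave 5 at a score of at least 100 and 1 with equal numbers. For H3K9me3, EA-HFSCs without LC-HFSCs, or without non-EA-HFSCs, gave 5 at a score of at least 100 and 1 with equal numbers, and non-EA-HFSCs without EA-HFSCs 1 in both. Non-LC-HFSCs without LC-HFSCs, or without non-EA-HFSCs, gave 1 at a score of at least 50, and 0 at 100 and with equal numbers, and non-EA-HFSCs without non-LC-HFSCs 0 with the outermost start and with 1000 bp.

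Starts of protein-coding transcripts alone moved no count by more than 1.5 times. No paired analysis was possible because each population and mark has 1 list. The lists hold no read counts and could not be put on one scale of reads.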
